A study of Mus musculus with 12 samples.

Results

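A set of 9 genes that are widely used to recognise dendritic cells were followed in macrophages sorted from mouse synovium, the membrane that lines the joint. The members were set as a list of symbols, with earlier results of these data known. All 9 were found among the 26699 gene symbols of the count files. They comprise 5 surface receptors (*Itgax*, *Cd209a*, *Flt3*, *Clec9a* and *Xcr1*) and 4 transcription factors (*Zbtb46*, *Irf4*, *Irf8* and *Batf3*). A filter on low counts kept 11927 genes for testing, among them 8 of the 9 members. *Clec9a* did not pass it and is given by its counts.

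The mice were wild-type animals labelled C57BL/6, and their age is not given in the sources used here for this experiment. Their synovium was kept whole as an explant and exposed to CGRP, the calcitonin gene-related peptide that sensory neurons release, at 100 nM over 4 h. Control libraries are labelled control and, in their titles, healthy; that controls received vehicle is taken from the study's methods. From the collagenase-digested tissue, MHC class II-positive macrophages that lacked CD11c (the IAIE subset, named after the MHC class II molecules I-A and I-E) or carried it (the CD11c subset) were sorted for total RNA sequencing. Each of the 4 groups had 3 libraries, 12 in all. Because whole explants were treated, neurons, fibroblasts and vessels were present during the incubation. Libraries held 2127191 to 5649698 counts. Levels are given in CPM, the counts scaled to library size, and 3 counts, used as the detection floor, stood for 0.531 to 1.33 CPM. This floor covers counting error only. The labels do not say whether replicates came from separate animals, and p-values then measure only the spread between these libraries, which may be technical. No sequencing batch or date is given.

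Dendritic cells capture antigen in tissues and carry it to lymph nodes to prime T cells. Their development from bone marrow precursors depends on the receptor tyrosine kinase Flt3, and the transcription factor Zbtb46 sets the conventional dendritic lineage apart from most macrophages. Type 1 conventional dendritic cells need Irf8 and Batf3 and carry Clec9a and Xcr1, whereas type 2 cells rely on Irf4 and can carry the lectin Cd209a. Several of these genes are not exclusive to the lineage, as CD11c and Irf4 are also found in macrophages and Irf8 in macrophages and B cells.

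The labels call all of these cells macrophages, so markers of other cells were read beside the members. Of 12 macrophage and monocyte markers, all were above the floor in at least 1 library and 11 in every library. Their summed level was 8119 to 9699 CPM in IAIE control, 8059 to 8692 in IAIE CGRP, 5107 to 6119 in CD11c control and 4774 to 5799 in CD11c CGRP libraries. *Adgre1*, which encodes the macrophage surface protein F4/80, measured 460 ± 61.0 CPM (SD, n = 3) in IAIE control and 272 ± 6.80 in CD11c control cells. Both subsets therefore contained abundant macrophage transcripts beside those described here. In bulk samples, fewer cells of a type and less RNA of a gene per cell cannot be told apart.

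The promoters of the 4 members that were called lower with CGRP in the CD11c subset are shown for orientation, since these genes moved together. Each stretch runs from 200 bases before to 10 bases after the RefSeq transcript start, 5′ to 3′ on the gene's own strand, from RefSeq on GRCm38.p6. Capitals mark a match on either strand to 1 of 6 motifs searched for: the cAMP response element TGACGTCA, its core TGACG, the ETS-IRF composite (GGAA and GAAA with any 2 bases between), the interferon-stimulated response element (GAAA and GAAA with any 2 bases between), the AP-1 site TGANTCA and the PU.1 core GAGGAA. The core lies within the full cAMP response element.
Cd209a, chr8:3748975-3749184, minus strand: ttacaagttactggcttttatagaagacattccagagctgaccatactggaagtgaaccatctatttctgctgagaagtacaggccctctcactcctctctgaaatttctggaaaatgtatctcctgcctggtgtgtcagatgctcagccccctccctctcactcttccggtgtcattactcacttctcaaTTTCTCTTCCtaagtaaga
Itgax, chr7:128129350-128129559, plus strand: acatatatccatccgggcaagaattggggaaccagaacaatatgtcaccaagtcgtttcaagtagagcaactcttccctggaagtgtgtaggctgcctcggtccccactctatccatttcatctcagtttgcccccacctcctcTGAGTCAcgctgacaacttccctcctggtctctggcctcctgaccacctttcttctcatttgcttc
Irf4, chr13:30749033-30749242, plus strand: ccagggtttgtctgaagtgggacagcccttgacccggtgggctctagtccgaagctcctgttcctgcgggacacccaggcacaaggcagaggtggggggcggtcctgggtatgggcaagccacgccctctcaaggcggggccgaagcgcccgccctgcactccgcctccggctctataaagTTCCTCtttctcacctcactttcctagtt
Flt3, chr5:147400480-147400689, minus strand: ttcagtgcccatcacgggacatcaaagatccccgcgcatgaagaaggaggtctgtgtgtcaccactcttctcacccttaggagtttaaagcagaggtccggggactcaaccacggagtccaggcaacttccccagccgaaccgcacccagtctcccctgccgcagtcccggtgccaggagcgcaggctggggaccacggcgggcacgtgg
In *Cd209a*, the capitals are the composite motif on the reverse strand, starting 9 bases before the gene's start. Of 32851 promoters of 300 bases, 2.72% held this motif. In *Itgax*, they are the AP-1 site, 56 bases before the start, which 7.81% of promoters held. In *Irf4*, they are the PU.1 core on the reverse strand, 19 bases before the start, which 28.3% of promoters held. *Flt3* held none of the 6 motifs. *Zbtb46* held an AP-1 site 61 bases before its RefSeq start, which lies 35038 bases inside the GENCODE gene positions given further on, so the outermost start was not searched. *Batf3* held a PU.1 core 153 bases before a RefSeq start that lies 567 bases inside the GENCODE gene. Neither the cAMP response element (in 1.79% of all promoters), its core (20.8%) nor the interferon-stimulated response element (3.44%) was found in the 300-base windows of the 9 genes. These matches are descriptions of letters and not evidence of binding.

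To set the members side by side, CPM was divided by the kilobases of exon of each gene. In CD11c control cells the level per kilobase was highest for *Cd209a* (187 ± 4.38), followed by *Irf4* (57.5 ± 5.18) and *Itgax* (49.0 ± 5.99), whose ranges overlapped. *Zbtb46* (9.13 ± 0.286), *Batf3* (5.07 ± 0.450) and *Irf8* (4.29 ± 0.502) came next, and *Flt3* (2.99 ± 0.317) and *Xcr1* (2.94 ± 0.452) overlapped each other. *Clec9a* was last at 0.789 ± 1.03. In IAIE control cells the order per kilobase was *Cd209a* (33.6 ± 10.1) and *Irf4* (27.2 ± 2.45), which overlapped, then *Irf8* (16.9 ± 0.856), *Batf3* (3.83 ± 0.0783) and *Xcr1* (2.73 ± 0.780). *Flt3* (1.48 ± 0.818), *Zbtb46* (1.41 ± 0.627) and *Itgax* (1.28 ± 0.986) overlapped each other, and *Clec9a* stood at 0.288 ± 0.500. The range of *Xcr1* also overlapped those of *Flt3* and *Itgax*, and that of *Clec9a* overlapped those of *Flt3*, *Zbtb46* and *Itgax*. The type 2 associated genes *Cd209a* and *Irf4* thus led in both subsets, and the type 1 receptors *Xcr1* and *Clec9a* were low in both. *Irf8*, which type 1 cells also need, came directly after *Irf4* in IAIE control cells.

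**Figure D1:**
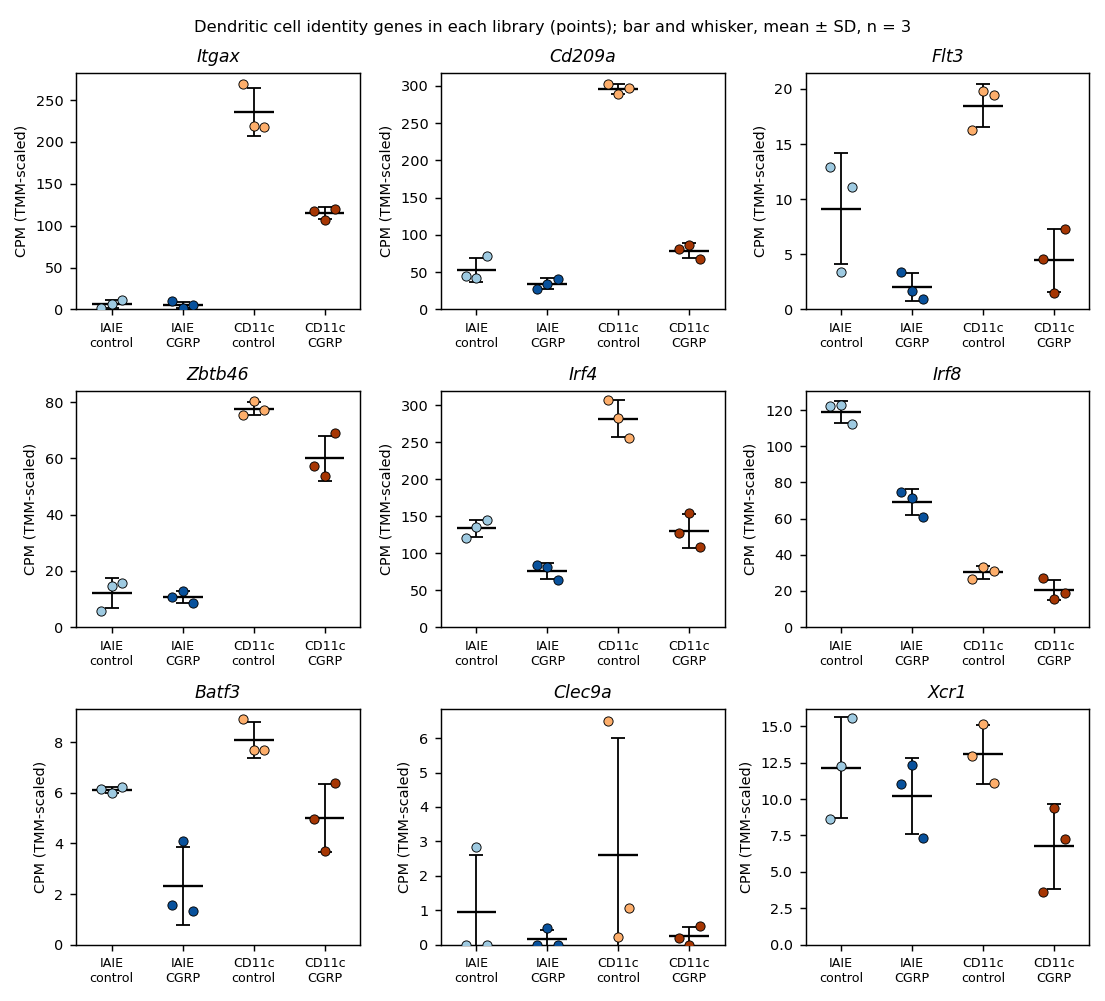
Level of each of the 9 genes in each library, in CPM scaled by TMM (vertical axes start at 0 and differ between panels). Points are libraries, bars the mean and whiskers the SD of 3 libraries per group; *Cd209a*, *Itgax*, *Irf4* and *Flt3* are lower in all CD11c CGRP libraries than in all CD11c control libraries.

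The first question was how CGRP moved these genes in the CD11c subset. *Cd209a*, *Flt3*, *Irf4* and *Itgax* fell with CGRP, to between 0.245 and 0.489 of the control level, and no member rose. These 4 of 8 tested members were lower at an adjusted p under 0.05 (edgeR), where 4.59% of all tested genes were lower and 10.9% changed in either direction. The median log2 fold change of the 8 members was -0.996, beside 0.00159 for all tested genes. All 8 fitted changes were negative, and in 7 of the 8 every CGRP library was below every control library, where 13.8% of all tested genes showed such a separation. In the IAIE subset *Irf4*, *Irf8* and *Flt3* fell with CGRP, to between 0.218 and 0.578 of control, and again no member rose. These 3 of 8 members compare with 3.89% of all tested genes that were lower and 9.21% that changed in either direction. The median over the 8 members was -0.70, beside -0.02 for all tested genes, with all 8 fitted changes negative and 4 of 8 separated downwards, against 11.9% of all tested genes.

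Among the receptors, *Cd209a*, a C-type lectin of the DC-SIGN family (chromosome 8, 3743397 to 3748984, minus strand of GRCm38), changed most clearly. It measured 302, 289 and 297 CPM in the CD11c control libraries and 81.7, 87.0 and 68.0 in the CD11c CGRP libraries. The CGRP libraries lay far below the controls, with no overlap. The log2 fold change was -1.91 ± 0.18 (SE; edgeR, adjusted p = 2.26e-06), that is 0.266 of the control level. Levels in the IAIE libraries were 45.3, 42.7 and 71.6 CPM in control and 27.1, 34.4 and 41.5 with CGRP. All 3 CGRP libraries were below the 3 controls, but the log2 fold change of -0.61 ± 0.20 missed the threshold (edgeR, adjusted p = 0.0578). That call turned with the settings and passed in 6 of 22 alternatives (adjusted p from 0.0200 to 0.314). No word of 31 bases in its exons was shared with another gene, related lectins included.

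*Itgax* encodes CD11c, the integrin alpha chain on which the subsets were sorted (chromosome 7, 128129547 to 128150657, plus strand). It measured 269, 220 and 218 CPM in CD11c control libraries and 118, 107 and 120 with CGRP, so that the groups did not overlap. The log2 fold change was -1.03 ± 0.30 (edgeR, adjusted p = 0.0288). The call was lost in DESeq2 (adjusted p = 0.325), with 1 surrogate variable (0.150) and when any 1 of the 6 CD11c libraries was left out (0.0559 to 0.0896). The fold change stayed between -1.09 and -0.86 in all 21 alternatives. Levels in IAIE cells were 1.23, 6.55 and 10.7 CPM in control and 9.48, 1.69 and 4.88 with CGRP, mixed between the groups, with a log2 fold change of -0.14 ± 0.50 (edgeR, adjusted p = 0.914). Of the 31-base words in its exons, 10.7% were shared with *Itgad*, a neighbouring integrin gene, so reads there are uncertain.

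*Flt3*, the receptor for the dendritic cell growth factor Flt3 ligand (chromosome 5, 147330741 to 147400489, minus strand), rested on few reads. The CD11c control libraries held 40, 85 and 91 counts (16.2, 19.8 and 19.4 CPM) and the CD11c CGRP libraries 24, 6 and 41 (4.58, 1.48 and 7.26 CPM). The groups were apart in CPM, and the log2 fold change was -2.03 ± 0.53 (edgeR, adjusted p = 0.0169). Leaving out CD11c control replicate 3 or CD11c CGRP replicate 2 moved the adjusted p to 0.0530 and 0.0630. The IAIE control libraries held 42, 12 and 25 counts (12.9, 3.42 and 11.1 CPM) and the IAIE CGRP libraries 13, 7 and 5 (3.42, 1.69 and 0.938 CPM). Here control replicate 2 and CGRP replicate 1 were level and the groups met. The log2 fold change was -2.20 ± 0.60 (edgeR, adjusted p = 0.0241). It missed the threshold in limma-voom (0.119), with 1 surrogate variable (0.0595) and without IAIE control replicate 1 (0.114), IAIE control replicate 3 (0.0678), IAIE CGRP replicate 2 (0.0932) or IAIE CGRP replicate 3 (0.113).

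The type 1 receptors gave no call. *Xcr1*, the receptor for the chemokine Xcl1 (chromosome 9, 123852315 to 123862029, minus strand), measured 13.0, 15.1 and 11.1 CPM in CD11c control and 3.63, 9.36 and 7.26 in CD11c CGRP libraries. The groups did not overlap, and the log2 fold change was -0.96 ± 0.38 (edgeR, adjusted p = 0.125). In IAIE cells it measured 8.62, 12.3 and 15.6 CPM in control and 11.1, 12.3 and 7.32 with CGRP, with overlap and a log2 fold change of -0.24 ± 0.38 (edgeR, adjusted p = 0.775). *Clec9a*, a lectin that recognises dead cells (chromosome 6, 129408862 to 129424763, plus strand), had 16, 1 and 5 counts in CD11c control, 1, 0 and 3 in CD11c CGRP, 0, 10 and 0 in IAIE control and 0, 2 and 0 in IAIE CGRP libraries. Only 3 of the 12 libraries exceeded 3 counts, 2 of them CD11c control libraries, so no change was detectable at this depth. Of its exon bases, 5.59% are overlapped on the same strand by *Clec1b*.

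Among the transcription factors, *Irf4*, the interferon regulatory factor of type 2 dendritic cells and of alternatively activated macrophages (chromosome 13, 30749226 to 30766976, plus strand), was lower with CGRP in both subsets. It measured 307, 282 and 256 CPM in CD11c control and 127, 154 and 108 in CD11c CGRP libraries. The groups were well apart, and the log2 fold change was -1.12 ± 0.15 (edgeR, adjusted p = 4.92e-05). It measured 121, 135 and 145 CPM in IAIE control and 84.5, 80.6 and 64.2 in IAIE CGRP libraries, again without overlap. The log2 fold change there was -0.81 ± 0.16 (edgeR, adjusted p = 0.00200). Both calls, and that of *Cd209a* in the CD11c subset, held in all 22 alternatives.

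*Irf8*, which type 1 and plasmacytoid dendritic cells need and which macrophages and B cells also express (chromosome 8, 120736358 to 120756694, plus strand), fell in the IAIE subset. It measured 122, 123 and 112 CPM in IAIE control and 74.8, 71.6 and 60.8 in IAIE CGRP libraries, without overlap. The log2 fold change was -0.79 ± 0.18 (edgeR, adjusted p = 0.00697), and the call held in all 22 alternatives. In the CD11c subset it measured 26.4, 33.3 and 31.2 CPM in control and 26.9, 15.8 and 18.9 with CGRP. CGRP replicate 1 lay within the control range, and the log2 fold change was -0.56 ± 0.19 (edgeR, adjusted p = 0.0730). It passed with upper-quartile scaling (0.0483), in DESeq2 (0.0485) and without CD11c CGRP replicate 1 (0.00993).

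*Zbtb46* and *Batf3* did not pass in either subset. *Zbtb46*, a zinc finger repressor of the conventional lineage (chromosome 2, 181387762 to 181459426, minus strand), measured 75.5, 80.3 and 77.3 CPM in CD11c control and 57.4, 53.7 and 69.0 with CGRP. The groups did not overlap, and the log2 fold change was -0.37 ± 0.23 (edgeR, adjusted p = 0.389). Its levels in IAIE cells, 5.85, 14.5 and 15.6 CPM in control and 10.8, 12.8 and 8.44 with CGRP, overlapped (-0.16 ± 0.29, edgeR, adjusted p = 0.817). *Batf3*, the bZIP partner of Irf8 in type 1 cells (chromosome 1, 191097847 to 191108945, plus strand), had only 6 to 36 counts per library. It measured 8.93, 7.68 and 7.69 CPM in CD11c control and 4.96, 3.69 and 6.37 with CGRP, apart but not past the threshold (-0.68 ± 0.47, edgeR, adjusted p = 0.445). In the IAIE libraries its levels were 6.16, 5.98 and 6.23 CPM in control and 1.58, 4.11 and 1.31 with CGRP. The groups were apart there too, with a log2 fold change of -1.39 ± 0.51 (edgeR, adjusted p = 0.0998) that passed without IAIE CGRP replicate 2 (0.0318).

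**Figure D2:**
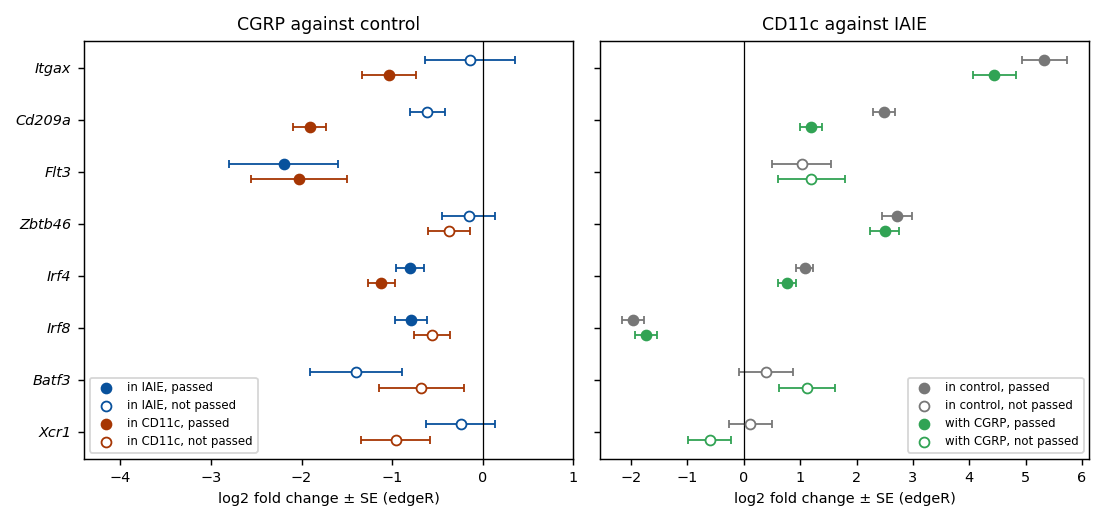
Log2 fold change ± SE (edgeR) of the 8 tested genes for CGRP against control in each subset (left) and for CD11c against IAIE cells in each treatment (right); filled points passed an adjusted p under 0.05. All points on the left lie below 0, and *Irf8* is the only gene that passed below 0 on the right.

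Whether CGRP acted differently in the 2 subsets was tested as the difference between the 2 fold changes. No member passed, where 0.151% of all tested genes (18) did. The unadjusted p was under 0.05 for 1 member, *Cd209a*, which was also the 1 member called by DESeq2, and limma-voom called none. Its difference, CD11c minus IAIE, was -1.30 ± 0.27 on the log2 scale (edgeR, adjusted p = 0.0544), and its adjusted p ranged from 1.21e-05 to 0.141 over 22 alternatives, of which 8 passed, among them DESeq2 (0.00228). *Itgax* differed by -0.89 ± 0.58 (edgeR, adjusted p = 0.739) and *Xcr1* by -0.72 ± 0.54 (0.788). The call of *Irf8* in the IAIE subset and its absence in the CD11c subset do not show a difference, as the difference was 0.23 ± 0.26 (edgeR, adjusted p = 0.895). For *Irf4* it was -0.31 ± 0.22 (0.763), for *Zbtb46* -0.21 ± 0.37 (0.929), for *Batf3* 0.72 ± 0.68 (0.853) and for *Flt3* 0.17 ± 0.75 (0.972). The SE of *Flt3* and *Batf3* leave room for sizeable differences in either direction.

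The subsets were then compared within each treatment. In control explants *Itgax*, *Zbtb46*, *Cd209a* and *Irf4* were higher in CD11c than in IAIE cells and *Irf8* was lower. These 5 of 8 members include *Itgax*, whose call was set by the sort. Of all tested genes, 21.2% were called in either direction (10.2% higher and 10.9% lower). The level of *Itgax* was 236 ± 28.7 CPM in CD11c and 6.15 ± 4.73 in IAIE control cells, a log2 difference of 5.33 ± 0.40 (edgeR, adjusted p = 2.99e-08). Since the cells were sorted on its protein, this checks the labels and is no finding. *Zbtb46*, which played no part in the sort, measured 77.7 ± 2.43 and 11.98 ± 5.34 CPM, a log2 difference of 2.71 ± 0.27 (edgeR, adjusted p = 7.75e-07). *Cd209a* measured 296 ± 6.93 and 53.2 ± 16.0 CPM (2.49 ± 0.19, edgeR, adjusted p = 3.48e-08) and *Irf4* 282 ± 25.4 and 133 ± 11.99 CPM (1.08 ± 0.15, edgeR, adjusted p = 4.37e-05).

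*Irf8* ran the other way. It measured 30.3 ± 3.54 CPM in CD11c and 119 ± 6.04 in IAIE control cells, a log2 difference of -1.97 ± 0.19 (edgeR, adjusted p = 5.33e-07). Of 8 B and plasma cell markers, 7 exceeded the floor in some library. Their summed level was 66.3 to 129 CPM in IAIE control and 9.40 to 15.8 in CD11c control libraries. Of 6 tested, 5 were lower in CD11c cells, where 10.9% of all tested genes were lower. The part of these markers in the level of *Irf8* was not tested. The remaining members did not pass: *Flt3* differed by 1.03 ± 0.52 (edgeR, adjusted p = 0.186), *Batf3* by 0.39 ± 0.47 (0.622) and *Xcr1* by 0.11 ± 0.38 (0.877).

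With CGRP the same 5 genes, again with *Itgax* of the sort among them, were called in the same directions. Of all tested genes, 16.9% were called (8.36% higher and 8.51% lower). The 2 subset comparisons use separate libraries, but each shares libraries with the CGRP comparisons. The log2 difference of *Itgax* was 4.44 ± 0.38 (edgeR, adjusted p = 1.24e-07), of *Zbtb46* 2.50 ± 0.26 (1.28e-06), of *Cd209a* 1.19 ± 0.19 (1.49e-04), of *Irf4* 0.76 ± 0.15 (0.00139) and of *Irf8* -1.74 ± 0.19 (2.33e-06). *Zbtb46* was 5.65-fold higher in the CD11c subset with CGRP and 6.55-fold higher in control, whereas *Cd209a* was 2.28-fold and 5.61-fold higher. *Batf3* (1.11 ± 0.50, edgeR, adjusted p = 0.148), *Flt3* (1.20 ± 0.60, 0.202) and *Xcr1* (-0.60 ± 0.38, 0.338) did not pass. All 5 calls held in every one of 23 alternatives, in control and with CGRP, where the gene could be tested.

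The balance of *Irf4* and *Irf8* separated the subsets in every library. The ratio of their counts was 0.987, 1.10 and 1.29 in IAIE control and 1.13, 1.13 and 1.06 in IAIE CGRP libraries. It was 11.6, 8.48 and 8.21 in CD11c control and 4.71, 9.78 and 5.72 in CD11c CGRP libraries. The 2 genes therefore had near equal counts in the IAIE subset in both treatments, and *Irf4* exceeded *Irf8* in all 6 CD11c libraries. The CD11c CGRP libraries overlapped with the CD11c controls, since CGRP replicate 2 lay between the control values.

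**Figure D3:**
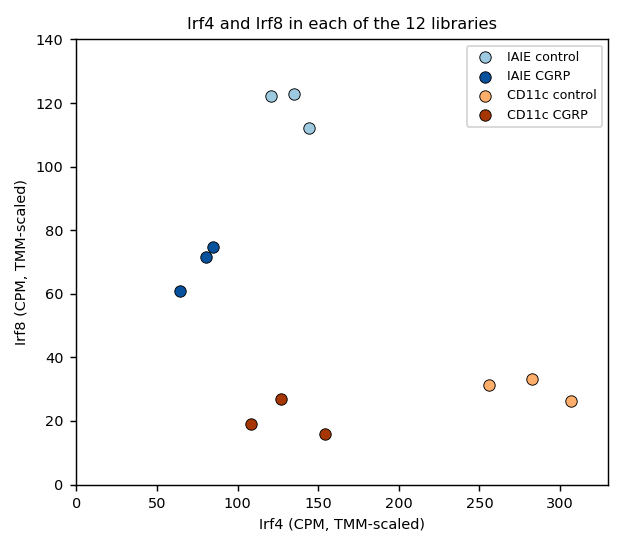
*Irf4* (horizontal) against *Irf8* (vertical) in the 12 libraries, in CPM scaled by TMM, coloured by group. The 4 groups occupy separate areas: IAIE control libraries sit at 112 to 123 CPM of *Irf8*, IAIE CGRP libraries at 60.8 to 74.8, and the CD11c libraries below both, with *Irf4* at 256 to 307 CPM in control and 108 to 154 with CGRP.

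Genes whose pattern over the 12 libraries was closest to each member were found by the root-mean-square difference of mean-centred log2(CPM + 1), over 8773 genes. *Irf4* was closest to *Mmp19* (0.103), a matrix metalloproteinase, then *Arhgap26* (0.144) and *Retnla* (0.159), a secreted protein of alternatively activated macrophages. *Irf8* was closest to the phosphatase gene *Dusp7* (0.137), then *Stab1* (0.234), a scavenger receptor, and *Tgfbr2* (0.255). *Cd209a* was closest to *Tnip3* (0.342), *Itpr1* (0.372) and *Septin6* (0.384), and *Itgax* to the chemokine gene *Ccl17* (0.658), *Dcstamp* (0.811) and *Upb1* (0.948). *Zbtb46* was closest to *Tmtc2* (0.289), *Cish* (0.305) and *Stat5a* (0.306). *Flt3* was closest to *Top2a* (0.395), *Srgap3* (0.513) and *H2-DMa* (0.529), *Batf3* to *Dusp2* (0.302), *Tecr* (0.309) and *Kdm6b* (0.313), and *Xcr1* to *Ahnak* (0.223), *Crim1* (0.273) and *Nom1* (0.280). For scale, the members' own root-mean-square spread about their mean was 2.55 for *Itgax*, 1.18 for *Cd209a*, 0.685 for *Irf4* and 0.492 for *Xcr1*. The values describe these libraries and carry no test.

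The other dendritic cell genes were read from 5 lists, of which each is described by its counts. These counts are to be read against all tested genes, of which CGRP raised 6.29% and lowered 4.59% in the CD11c subset and raised 5.32% and lowered 3.89% in the IAIE subset. Of 15 tested genes of the conventional dendritic core, CGRP raised 1 and lowered 2 in the CD11c subset (median log2 fold change -0.23) and lowered 3 in the IAIE subset (median -0.50). In control explants, 8 of the 15 were higher and 1 lower in CD11c than in IAIE cells. Of all tested genes, 10.2% were higher and 10.9% lower in that comparison. *Gpr132*, a G protein-coupled receptor, fell in both subsets. It measured 187 ± 8.81 CPM in CD11c control and 129 ± 8.63 in CD11c CGRP cells (-0.53 ± 0.14, edgeR, adjusted p = 0.0187), and 63.7 ± 8.06 and 36.3 ± 5.33 CPM in IAIE control and CGRP cells (-0.82 ± 0.15, 0.00164). *Runx3*, a transcription factor, rose in CD11c cells, where control measured 94.0 ± 6.69 CPM and CGRP 166 ± 25.6 (0.82 ± 0.21, edgeR, adjusted p = 0.0126). *P2ry10*, a receptor for lysophospholipids, fell in IAIE cells (-1.004 ± 0.20, edgeR, adjusted p = 0.00305), and *Traf1*, an adaptor of TNF receptors, was 2.14 ± 0.16 log2 units higher in CD11c than in IAIE control cells (edgeR, adjusted p = 3.43e-08).

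Of 8 tested type 1 genes, CGRP raised 2 and lowered 2 in the CD11c subset (median 0.00438) and raised 1 and lowered 2 in the IAIE subset (median 0.87). *Wdfy4*, which type 1 cells need for cross-presentation, measured 125 ± 19.996 CPM in CD11c control and 28.3 ± 8.58 in CD11c CGRP cells, a log2 fold change of -2.14 ± 0.22 (edgeR, adjusted p = 4.68e-06), and 72.0 ± 10.9 and 28.6 ± 7.6 CPM in IAIE control and CGRP cells (-1.33 ± 0.22, 6.48e-04). *Naaa*, a lysosomal amidase, fell by 1.48 ± 0.16 and 0.96 ± 0.16 log2 units (edgeR, adjusted p = 5.21e-06 and 7.00e-04). The members of this list that rose were *Ifi205*, an interferon-inducible gene (2.44 ± 0.26 in CD11c cells, edgeR, adjusted p = 5.05e-06; 2.18 ± 0.25 in IAIE cells, 1.65e-05), and *Ly75*, which encodes the endocytic receptor DEC-205 (1.41 ± 0.43 in CD11c cells, 0.0384).

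Of 13 tested type 2 genes, CGRP raised 2 and lowered 4 in the CD11c subset (median -0.41) and raised 1 and lowered 5 in the IAIE subset (median -0.25). *Tmem176a* and *Tmem176b*, neighbouring genes for membrane proteins of dendritic cells and macrophages, fell in both. *Tmem176b* measured 252 ± 35.6 CPM in CD11c control and 90.9 ± 22.3 in CD11c CGRP cells (-1.47 ± 0.19, edgeR, adjusted p = 3.27e-05), and 206 ± 40.5 and 94.9 ± 18.4 CPM in IAIE control and CGRP cells (-1.12 ± 0.19, 6.93e-04). *Tmem176a* measured 93.5 ± 5.97 and 35.6 ± 7.24 CPM in CD11c control and CGRP cells (-1.40 ± 0.22, edgeR, adjusted p = 2.18e-04). *Cd24a*, a surface glycoprotein, and *Rbpj*, the transcription factor of Notch signalling, passed between subsets and not with CGRP. They were 2.26 ± 0.21 and 1.03 ± 0.11 log2 units higher in CD11c control cells (edgeR, adjusted p = 3.18e-07 and 2.37e-06).

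Of 10 tested genes of mature migratory dendritic cells, CGRP raised 4 and lowered 1 in the CD11c subset (median 0.12) and raised 2 and lowered 2 in the IAIE subset (median -0.23). *Ccr7*, the receptor that guides dendritic cells to lymph nodes, rose in CD11c cells, where it measured 239 ± 33.3 CPM in control and 573 ± 53.7 with CGRP (1.26 ± 0.17, edgeR, adjusted p = 5.32e-05), and measured 42.0 ± 10.4 and 43.3 ± 10.05 in IAIE control and CGRP cells (0.06 ± 0.19, 0.903). The difference between those effects was 1.20 ± 0.26 (edgeR, adjusted p = 0.0675). *Ccl22*, a chemokine, rose in both subsets. It measured 231 ± 40.5 CPM in CD11c control and 679 ± 79.1 in CD11c CGRP cells (1.55 ± 0.30, edgeR, adjusted p = 0.00149), and 3.51 ± 4.28 and 41.7 ± 22.0 CPM in IAIE control and CGRP cells (3.81 ± 0.48, 3.32e-05). *Cacnb3*, a calcium channel subunit, had no counts in IAIE control libraries and was at least 5.54-fold higher in IAIE CGRP libraries, measured against a floor of 3 counts per library, a bound that was 2.52-fold without IAIE CGRP replicate 3. It rose by 2.93 ± 0.50 log2 units in CD11c cells (edgeR, adjusted p = 7.38e-04). *Cd83*, a maturation marker, fell in both subsets (-0.56 ± 0.14 in CD11c cells, edgeR, adjusted p = 0.0121; -0.78 ± 0.14 in IAIE cells, 0.00108). In control explants 9 of the 10 were higher in CD11c cells and none lower, where 10.2% of all tested genes were higher and 10.9% lower.

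Plasmacytoid dendritic cell genes were few. Of 6 tested, *Bst2*, which interferon also induces, rose with CGRP in both subsets (1.90 ± 0.25 in CD11c and 1.55 ± 0.25 in IAIE cells, edgeR, adjusted p = 4.38e-05 and 4.22e-04) and was the 1 gene called. *Siglech*, a receptor that defines these cells, had 36, 36 and 17 counts in IAIE control and 35, 30 and 40 in IAIE CGRP libraries, against 2, 3 and 0 in CD11c control and 5, 1 and 6 in CD11c CGRP libraries. It and *Tcf4*, the transcription factor of the lineage, were lower in CD11c than in IAIE control cells (*Tcf4* -0.92 ± 0.21, edgeR, adjusted p = 0.00311). These were the 2 called of 6 tested in that comparison, where 10.9% of all tested genes were lower. The log2 difference was positive for 3 of the 6 and negative for 3, with a median of -0.00968. *Siglech* and *Irf8* were thus both lower in CD11c control cells. With CGRP in IAIE cells the log2 fold change of *Siglech* was -0.28 ± 0.54 (edgeR, adjusted p = 0.826). Its SE is too wide to tell this from the -0.79 ± 0.18 of *Irf8*. The part of plasmacytoid cells in the level of *Irf8* was not tested.

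**Figure D4:**
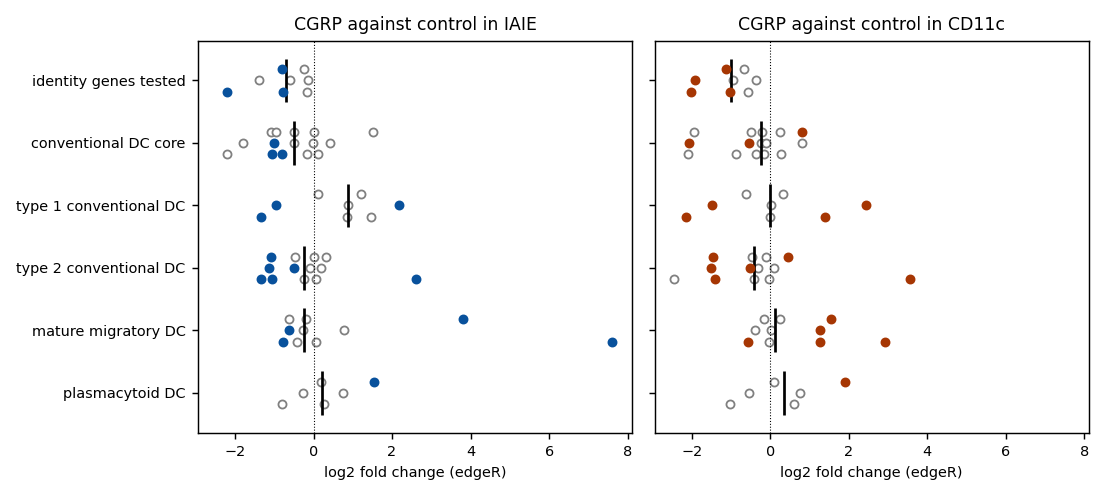
Log2 fold change (edgeR) with CGRP of the 8 tested identity genes and of the tested genes of 5 further dendritic cell lists, in the IAIE (left) and CD11c subset (right). Each point is a gene, filled where it passed an adjusted p under 0.05, and the bar is the list's median; all points of the identity genes lie below 0, while *Ccr7*, *Ccl22* and *Cacnb3* in the mature migratory list rose in the CD11c subset.

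Levels of other cell types that moved with CGRP are given for the comparisons above. In the CD11c subset, of 6 T and NK cell genes read, only *Cd2* was tested, and it fell from 37.3 ± 6.99 to 14.3 ± 3.50 CPM (-1.37 ± 0.33, edgeR, adjusted p = 0.00941). The summed level of the list was 30.7 to 44.6 CPM in control and 11.3 to 17.9 with CGRP. *Cd3d* had at most 3 counts and *Trac* at most 2 in any library, so these genes of the T cell receptor complex were at or under the floor throughout. Only 6 of 9 listed T and NK cell genes were in the count files, without *Cd3e* and *Cd3g* of that complex. In the IAIE subset the B and plasma cell markers summed to 66.3 to 129 CPM in control and 27.1 to 52.3 with CGRP. The 6 tested had log2 fold changes from -1.73 ± 0.62 for *Cd79b* (edgeR, adjusted p = 0.0933) to -0.33 ± 0.50 for *Ebf1* (0.770), with a median of -1.09. Their part in the falls of *Irf4* and *Irf8* in the IAIE subset was not tested.

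The fibroblast markers summed to 196 to 269 CPM in CD11c control and 446 to 667 in CD11c CGRP libraries, and 2 of 6 tested passed as higher. These were *Pdpn*, which encodes podoplanin (0.88 ± 0.15, edgeR, adjusted p = 5.62e-04), and *Dcn* (4.88 ± 0.84, 5.77e-04). All 6 fitted changes were positive, with a median of 3.11, beside 0.00159 for all tested genes. Among those that missed the threshold were *Col1a1* (2.27 ± 0.88, edgeR, adjusted p = 0.114), *Col1a2* (1.99 ± 0.69, 0.0705) and *Prg4* (4.96 ± 1.85, 0.0994). The part of fibroblast transcripts in the falls of the members was not tested. Much of the sum was *Pdpn*, at 202 ± 43.5 CPM in CD11c control and 369 ± 47.7 in CD11c CGRP cells. In the IAIE subset the summed levels overlapped, at 329 to 1194 CPM in control and 552 to 2160 with CGRP. The listed marker *Prg4* alone spanned 2.06 to 1427 CPM in the IAIE CGRP libraries. Of 6 tested there, 1 rose and 2 fell. *Pdpn* rose (1.72 ± 0.15, edgeR, adjusted p = 1.21e-06), and the collagen genes *Col1a1* (-3.05 ± 0.77, 0.0147) and *Col1a2* (-2.37 ± 0.61, 0.0165) fell. Both collagen genes varied widely in control and overlapped between treatments. *Col1a1* spanned 34.8 to 666 CPM in IAIE control and 16.9 to 53.2 in IAIE CGRP libraries. *Col1a2* spanned 28.3 to 282 and 14.0 to 28.9 CPM. The summed level of the macrophage and monocyte markers overlapped between treatments in both subsets. Of 12 tested, 1 rose in the CD11c subset, while 1 rose and 2 fell in the IAIE subset. Not every single marker overlapped. In the CD11c subset 2 of the 12 separated downwards with CGRP and 1 upwards, and in the IAIE subset 3 downwards and 1 upwards. The CGRP libraries were deeper on average. After every library was thinned to the smallest total, 4 members were still called in the CD11c and 3 in the IAIE subset.

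**Figure D5:**
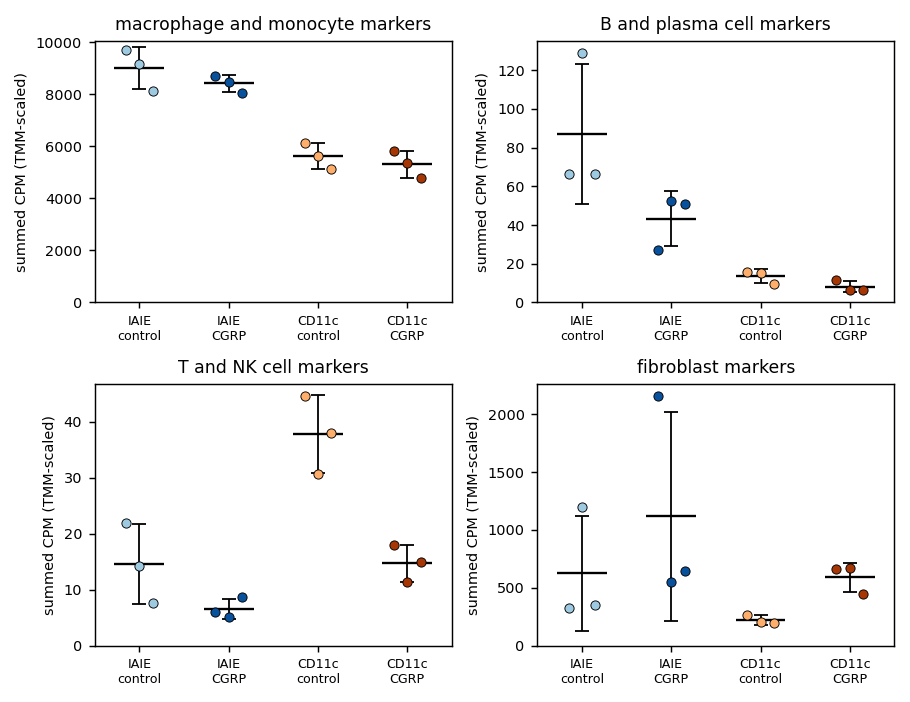
Summed CPM (scaled by TMM) of 4 marker lists in each library, with vertical axes that start at 0; points are libraries, bars the mean and whiskers the SD of 3 libraries per group. The summed macrophage levels overlap between control and CGRP within each subset. The summed B and plasma cell level of each IAIE CGRP library lies below those of the IAIE control libraries although none of the 6 tested genes passed. The summed fibroblast level is higher with CGRP in the CD11c subset, where 2 of 6 tested genes passed and all 6 fitted changes were positive.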

How the data were processed

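Per the study's methods and processing notes, the authors trimmed reads with Trim Galore, aligned them to mm10 with HISAT2 and summarised them per gene with featureCounts. Tool versions, the gene annotation and whether strand was used in counting are not given in the sources used here. The files deposited by the authors hold unnormalised read counts, 1 row per gene symbol. A combined table repeats the 12 libraries exactly, and 6 further columns that no label maps to a sample were not used.

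Genes were kept with filterByExpr by group (minimum count 10, minimum total 15). All 12 libraries entered 1 edgeR quasi-likelihood fit (edgeR 4.0.16, R 4.3.3) with TMM scaling and a mean per group, and 5 comparisons were tested, two-sided, with Benjamini-Hochberg adjustment over the 11927 genes and a threshold of 0.05. Unless another tool is named, p-values are from this fit. CPM was scaled by TMM and is given as mean ± SD, and fold changes as log2 estimate ± SE. The study itself used DESeq2 with sva. Here DESeq2 without a surrogate variable and edgeR with 1 surrogate variable were alternatives, and DESeq2 with sva was not run. The common biological coefficient of variation was 0.256. Spearman's rho across genes between replicates was 0.934 to 0.968, and no 2 libraries agreed within sampling noise.

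The 9 members and the lists were chosen with earlier results of these data known. All members are named. Of each other dendritic cell list up to 4 genes are named, those past the threshold in the most comparisons, then by the smallest p. *Adgre1* and the lymphoid and plasmacytoid markers given by counts were picked as markers. *Cd2*, *Cd79b*, *Ebf1*, *Pdpn*, *Dcn*, *Prg4*, *Col1a1* and *Col1a2* were picked after their values were seen. Closest genes had a mean of at least 5 CPM. Gene positions and exon lengths come from GENCODE on GRCm38 and promoters from RefSeq. The fit was tested on simulated data.

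The alternatives were RLE and upper-quartile scaling, no filter, a stricter filter (10 counts or more in each library), blocks by replicate number and by explant (treatment with replicate number), a fit of only the compared libraries, DESeq2 1.42.0, limma-voom (limma 3.58.1, quality weights), 1 surrogate variable (sva 3.50.0) and each library left out in turn. Thinning to the lowest total was chosen after seeing the data.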

Additional observations from a re-analysis of the deposited data

How the results depend on the processing

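The calls of *Cd209a* and *Irf4* with CGRP in the CD11c subset, those of *Irf4* and *Irf8* in the IAIE subset and all 5 calls between subsets in each treatment held in every alternative run in which the gene was tested. The count of members called with CGRP in the CD11c subset was 4; it was 2 when genes needed at least 10 counts in every library, which left 5 members to test, and 2 to 4 when 1 library was left out, the low end being without replicate 3 of CD11c control or replicate 2 of CD11c CGRP. In the test of the difference between subsets the count was 0; it was 1 (*Cd209a*) with no filter, in DESeq2, after thinning and with either replicate block, and 0 to 1 when 1 library was left out, with 1 without IAIE control replicate 3, IAIE CGRP replicate 1 or CD11c CGRP replicate 2. Counts of 3 in the IAIE subset and of 5 and 5 between subsets stayed within 1.5 times. The number of all genes called in the difference test was 18 and ranged from 2 in limma-voom to 171 without the filter.

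The sign of some small values turned. For *Itgax* with CGRP in the IAIE subset the log2 fold change was 0.0358 with 1 surrogate variable and -0.74 to 0.42 with 1 library left out. For *Flt3* the difference between subsets was -0.0985 with the replicate block, -0.0593 with the explant replicate block, -0.0816 in limma-voom, -0.0782 after thinning and -0.37 to 0.72 with 1 library left out. With 1 library left out, *Zbtb46* ranged from -0.50 to 0.0627 with CGRP in the IAIE subset and from -0.44 to 0.13 in the difference, *Irf8* from -0.0608 to 0.34 in the difference, and *Xcr1* from -0.0841 to 0.33 between subsets in control. The cause of these changes was not tested.

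Deviations from the group means of same-numbered libraries, over 7152 genes, correlated at 0.158, 0.132 and 0.00907 (CGRP, CD11c), 0.0197, 0.00256 and -0.0163 (CGRP, IAIE), 0.0141, 0.0448 and -0.0128 (subsets, control) and 0.286, 0.0838 and 0.115 (subsets, CGRP), so not every number exceeded 0.1 in any comparison and the numbers were not taken as pairs. With the replicate block 4 members were called in the CD11c and 4 in the IAIE subset, where *Cd209a* was added (adjusted p = 0.0495, edgeR). Counts of 6 to 91 for *Flt3* and *Batf3* in CD11c libraries, and of at most 16 for *Clec9a*, limit what their values can show.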
